A study of Brassica carinata with 12 samples.

Results

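The passage from meiosis to mitosis was followed in anthers of tetraploid synthetic Brassica carinata, a mustard that joins the B genome of B. nigra with the C genome of B. oleracea. Of the 12 RNA-seq libraries of the series, the 6 from the tetraploid (BBCC) were taken by their genotype and stage labels, 3 at mitosis (gametogenesis) and 3 at meiosis (sporogenesis). The other 6 came from the haploid (BC) at the same stages, 3 at mitosis and 3 at meiosis, and serve as a second, separate set of libraries. Both forms go back to a cross of B. oleracea var. alboglabra as mother with B. nigra as father, and the tetraploid was made from it by ovule culture and colchicine, an agent that blocks chromosome separation and so doubles the chromosome set. The labels give young anther (pollen) as the tissue at meiosis and anther (pollen) at mitosis, while the extraction text speaks of floral buds. The labels do not tell whether libraries of 1 stage stem from different plants, and all p-values therefore rest on a spread between libraries that may be technical.

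In the anther, meiosis normally turns pollen mother cells into microspores with a reduced number of chromosomes. Each microspore later divides by an asymmetric mitosis into a large vegetative cell, which will form the pollen tube, and a small generative cell, from which the sperm arise. The tapetum, a layer of cells around the locule, feeds the microspores and breaks down as pollen matures. A whole-anther library holds all of these cells, so fewer cells of a type and less RNA per cell cannot be told apart. The files pair no gene ID with a gene name, so markers of meiocytes, tapetum and pollen could not be read, and the labelled stages were not checked against them. Genes are described by subgenome and chromosome, which their IDs give, and by how they changed.

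Total counts per tetraploid library lay between 15769687 and 16793767. Log2 expression correlated across genes at Pearson's r of 0.978 to 0.982 between libraries of the same tetraploid stage and at 0.565 to 0.571 between stages, and no library stood apart. Of the 97149 genes listed, 51860 had enough counts to be tested, 20054 on the 8 B chromosomes, 27420 on the 9 C chromosomes and 4386 unplaced. Levels of 1 gene across libraries are in CPM, counts relative to library size, which was adjusted by TMM, a factor that brings the bulk of genes of all libraries together. The deposited FPKM, which also divides by gene length, is used for levels of gene classes in the tetraploid. CPM of different genes rank the named genes and show the depth behind sets of genes, and are not levels per length.

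Most of the transcriptome moved between the stages. Higher at mitosis were 19322 genes, 37.3% of those tested, and lower were 18000, or 34.7% (edgeR's quasi-likelihood test, adjusted p under 0.05 by Benjamini-Hochberg over all tested genes). At least 2-fold higher were 12606 genes (24.3%), and at least 2-fold lower 9880 (19.1%). The median log2 fold change over all tested genes was 0.03, and with TMM all changes are relative to the bulk of genes. On the deposited FPKM scale, to which no TMM factor was applied here, the median was -0.15 (log2(FPKM + 0.1)) and fewer genes were called higher (16637) than lower (21168).

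The 37322 called genes fall into classes by how much was left at the lower stage. A gene counts as switched on when it was called higher, had at most 3 counts in the 3 meiosis libraries together and reached at least 1 CPM in every mitosis library. Switched off is the mirror of this. A graded gene was called and had at least 1 CPM in all 6 libraries. Switched on were 1865 genes and switched off 762, together 7.04% of the called genes. Graded genes were the largest class, at 66.4%, with 11706 higher and 13071 lower. A further 7003 called genes (18.8%) were expressed at 1 stage and held more than 3 counts, but less than 1 CPM in some library, at the other, and 2915 (7.81%) were low at both. The limit of 3 counts lies within a smooth run of values, since 219 switched-on genes held exactly 3 counts at meiosis and 168 genes just outside the class held 4.

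**Figure D1:**
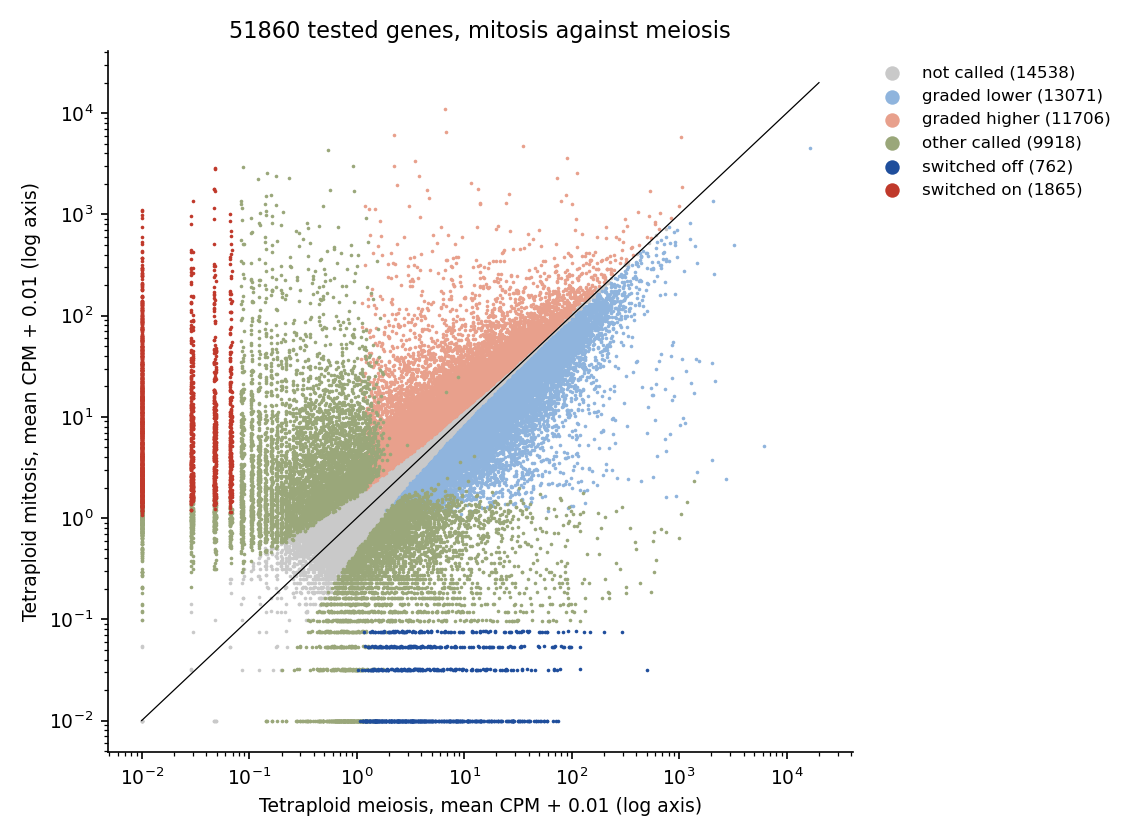
Mean CPM plus 0.01 of each tested gene at mitosis (vertical, log axis) and at meiosis (horizontal, log axis) in the tetraploid, means of 3 libraries, with the line of equal level. The 1865 switched-on genes stand in columns at the left edge, the 762 switched-off genes in rows at the bottom, and the graded genes form broad bands above and below the line of equal level.

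Switching on was the larger and the more abundant side. Among switched-on genes, 1058 had 0 counts in all 3 meiosis libraries, and among switched-off genes 363 had 0 counts in all 3 mitosis libraries. Switched-on genes reached a median of 7.39 FPKM at mitosis (interquartile range 2.65 to 29.6), and switched-off genes had stood at a median of 6.56 FPKM at meiosis (2.62 to 14.7). The upper quartiles thus lay further apart than the medians.

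Although they were few, switched-on genes took 6.89% to 7.25% of all counts in the mitosis libraries, against 0.00291% to 0.00330% in the meiosis libraries. Their 10 most abundant members held 22.2% of the counts of the class at mitosis, and their 100 most abundant 61.8%. Switched-off genes held 0.00149% to 0.00168% of counts at mitosis and 1.05% at meiosis in each library. These shares follow from how the classes were defined and are given as a description.

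Graded genes carried most of the shift in counts. Genes graded higher held 44.2% to 44.3% of counts at mitosis and 19.3% to 19.4% at meiosis. Genes graded lower held 25.8% to 26.2% at mitosis and 62.0% to 62.2% at meiosis. The groups of libraries lie far apart in each class, which follows from choosing genes called between these stages. These shares too are given as a description. Genes that were not called, 14538 in number, held 11.5% of counts on average at mitosis and 13.0% at meiosis. Most graded changes were modest. Of genes graded higher, 56.0% changed less than 2-fold, 31.5% 2-fold to 4-fold, 10.3% 4-fold to 16-fold and 2.15% more than 16-fold. Of genes graded lower these shares were 60.5%, 29.7%, 8.54% and 1.26%. The median log2 fold change was 0.90 for genes graded higher (interquartile range 0.57 to 1.43) and -0.85 for genes graded lower (-1.29 to -0.56).

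**Figure D2:**
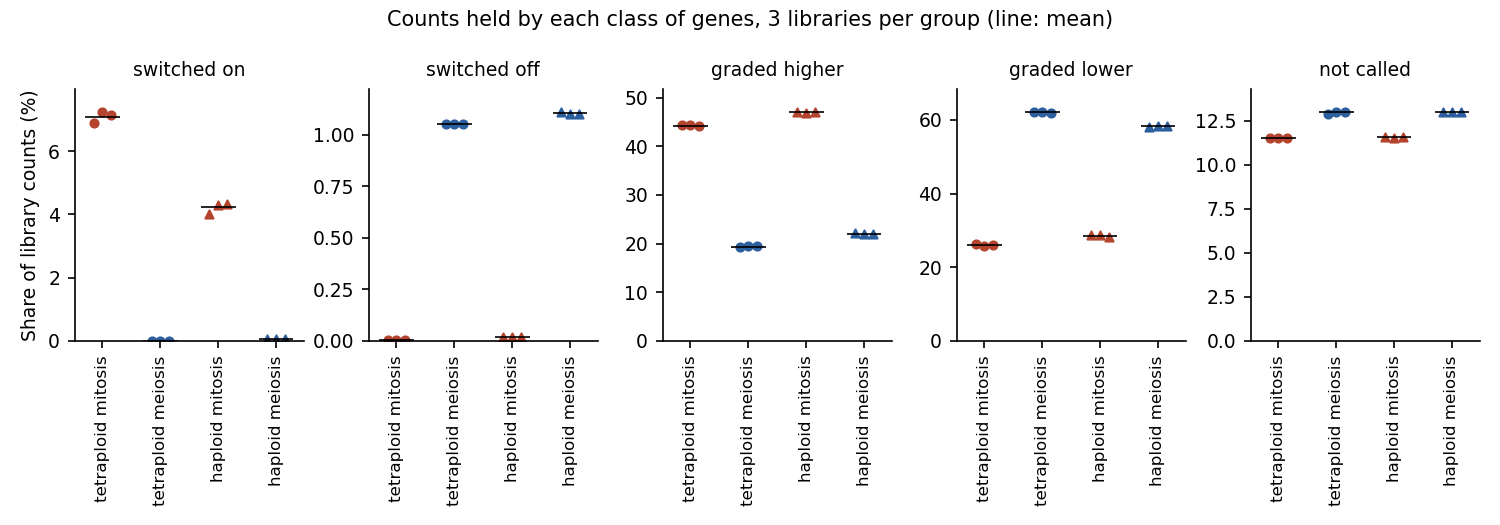
Share of each library's counts (percent) held by genes of 5 tetraploid classes, in 3 libraries per group, with red for mitosis, blue for meiosis, circles for the tetraploid, triangles for the haploid and a line at the mean. Genes graded lower held 25.8% to 26.2% of counts in tetraploid mitosis libraries and 62.0% to 62.2% in tetraploid meiosis libraries, and the haploid stages stand in the same order in each panel.

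A single gene is given for each class, by rules set on class, level and fold. BcaC09g47954 on C09 was the switched-on gene with the highest CPM at mitosis, at 2752, 2982 and 2867 CPM in the mitosis libraries, against 0.0560, 0 and 0.0592 CPM in the meiosis libraries. The mitosis libraries held 42514 to 44892 counts of it each and the meiosis libraries 2 counts in all, so the groups lie far apart. The ratio was 75424, with an exact 95% binomial counting interval of 20879 to 622805 (adjusted p = 1.25e-45, edgeR). In the haploid it was switched on as well, to a mean of 552 ± 3.02 CPM at mitosis (SD, n = 3), against 3 counts in the 3 meiosis libraries.

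BcaNung03410, an unplaced gene, had the largest fold change among genes graded higher. It stood at 6232, 6011 and 5933 CPM at mitosis, against 2.07, 3.18 and 1.42 CPM at meiosis. Every mitosis library was thus far above every meiosis library, with a log2 fold change of 11.40 (adjusted p = 3.89e-43, edgeR). With any 1 library left out the log2 fold change was 11.16 to 11.74. The haploid moved alike, with 7949 ± 107 CPM at mitosis and 2.24 ± 0.651 CPM at meiosis (SD, n = 3 each), and the stage change of both forms was not called different (tetraploid minus haploid -0.39, SE 0.19, adjusted p = 0.112, edgeR).

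BcaC01g00670 on C01 was the switched-off gene with the highest CPM at meiosis. Its values were 0.0647, 0 and 0 CPM at mitosis, against 516, 507 and 485 CPM at meiosis. A single count was left at mitosis. The haploid kept more of it, with 2.56, 2.31 and 3.59 CPM at mitosis, against 724, 714 and 720 CPM at meiosis, so there the gene counts as graded lower and not as switched off.

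BcaB01g04189 on B01 had the largest fall among graded genes. It stood at 3.82, 6.18 and 5.51 CPM at mitosis, against 5891, 5671 and 6754 CPM at meiosis. The log2 fold change was -10.21 (SE 0.13, adjusted p = 1.26e-36, edgeR), and the 2 groups lie about 3 orders of magnitude apart. In the haploid the means were 16.1 ± 2.31 CPM at mitosis and 7146 ± 1321 CPM at meiosis (SD, n = 3 each). The fall was smaller there (log2 fold change -8.79, SE 0.12), and the difference between the forms was called (tetraploid minus haploid -1.41, SE 0.19, adjusted p = 3.54e-07, edgeR).

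The haploid libraries moved most of the genes the same way. The level limits of the classes used tetraploid libraries alone, but the calls came from a fit over all 12 libraries. With the tetraploid libraries alone in the fit, all 1865 switched-on and 762 switched-off genes were found again, with 11605 of the genes graded higher and 12975 of those graded lower. The level limits used the same tetraploid libraries in both fits, which left the switched classes little room to lose genes. At mitosis, 1653 of the 1865 switched-on genes (88.6%) were also higher in haploid anthers by the test and 2 were lower, where 33.3% of all tested genes were called higher and 63.8% either way. Of the 762 switched-off genes, the test called 750 lower in haploid anthers (98.4%) and 1 higher, where 30.4% of all tested genes were called lower. Genes graded higher were less uniform, with 8495 (72.6%) called higher in haploid anthers and 449 called lower. The same held for genes graded lower, with 9250 (70.8%) called lower there and 567 called higher. Among genes not called in the tetraploid, 2549 (17.5%) moved up by the test in haploid anthers and 2252 (15.5%) moved down.

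The same direction did not mean the same level. By the same limits, 735 of the 1865 switched-on genes (39.4%) were switched on in the haploid, where 1.94% of all tested genes were. Of the 762 switched-off genes, 243 (31.9%) were switched off in the haploid, where 0.723% of all tested genes were. At mitosis, the median switched-on gene stood at 6.63 CPM in tetraploid anthers and at 1.69 CPM in haploid anthers. The haploid mean was below the tetraploid mean for 1641 of them (88.0%, against 48.2% of all tested genes), and every haploid mitosis library was below every tetraploid mitosis library for 1557 (83.5%, against 27.4%). These genes were chosen for being high in tetraploid mitosis libraries, which favours that direction. The reverse choice gave it too. Among 1007 genes switched on in the haploid by the same limits, the median at mitosis was 16.0 CPM in tetraploid anthers and 5.69 CPM in haploid anthers, and 783 had the lower mean in the haploid. Of these 1007 genes, 735 (73.0%) were switched on in the tetraploid too, so the 2 choices overlap.

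At the extremes, 106 switched-on genes (5.68%) had at most 3 counts in the 3 haploid mitosis libraries together, against 2.08% of all tested genes. Of these, 26 had 0 counts (1.39% of the class, against 0.706% of all tested genes). Some switched-on genes were not silent at haploid meiosis. At most 3 counts over the haploid meiosis libraries were found for 1468 of the 1865 (78.7%, against 4.61% of all tested genes). At least 1 CPM in each of these libraries was reached by 36 (1.93%, against 74.7%). For switched-off genes the tetraploid median was 0.0216 CPM at mitosis and 3.97 CPM at meiosis. Their haploid median was 0.110 CPM at mitosis and 3.86 CPM at meiosis. These genes were chosen for at most 3 counts in tetraploid mitosis libraries, which favours the lower tetraploid value. For the reverse choice, 375 genes were switched off in the haploid. Their median at mitosis was 0.0216 CPM in tetraploid and 0.0218 CPM in haploid anthers, and 162 had the lower mean in the haploid. Both medians lie near the limit of detection, and 243 of the 375 (64.8%) were switched off in the tetraploid too. The reverse choice therefore cannot tell whether the forms differ here. At least 1 CPM was left in every haploid mitosis library for 18 of the 762 genes switched off in the tetraploid (2.36%, against 76.3% of all tested genes).

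**Figure D3:**
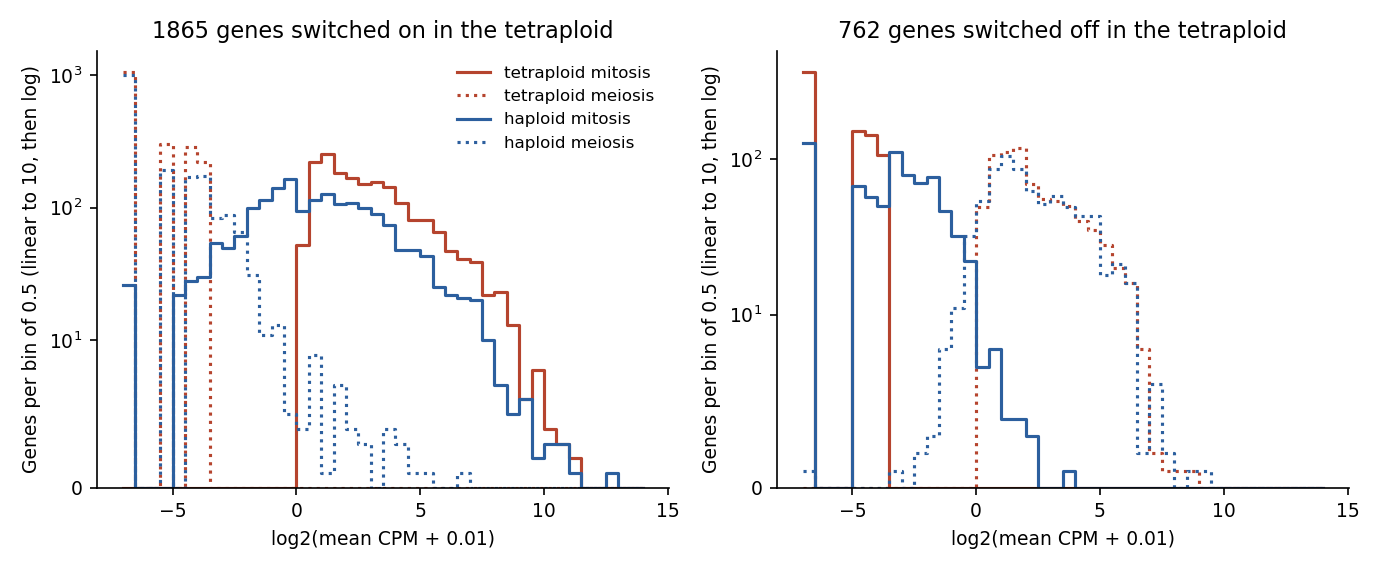
Distribution of log2(mean CPM + 0.01) over the genes switched on (left) and switched off (right) in the tetraploid, in bins of 0.5 (vertical axis, genes per bin, linear to 10 and then log), with red for the tetraploid, blue for the haploid, solid lines for mitosis and dotted lines for meiosis (means of 3 libraries each). Switched-on genes sit lower in haploid mitosis than in tetraploid mitosis (medians 1.69 and 6.63 CPM), and switched-off genes, chosen for few counts in tetraploid mitosis, have medians of 0.0216 CPM in tetraploid and 0.110 CPM in haploid mitosis.

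Graded genes had larger median stage changes in the tetraploid. They were chosen on the tetraploid stage change, which favours this direction, and no reverse choice is given for them. Genes graded higher had a median log2 stage change of 0.90 in the tetraploid and 0.65 in the haploid, and genes graded lower had -0.85 in the tetraploid and -0.56 in the haploid. Over all tested genes the medians were 0.03 in the tetraploid and 0.04 in the haploid. The difference of the stage changes was tested as an interaction, which called 7736 genes with a more positive change in the tetraploid (14.9% of tested genes) and 8077 with a more negative one (15.6%), together 30.5%. Among genes graded higher, 3987 (34.1%) were called more positive in the tetraploid and 1073 (9.17%) more negative. Among genes graded lower, 4707 (36.0%) were called more negative and 869 (6.65%) more positive. Classes were chosen on the tetraploid stage change itself, which is part of this difference, so these counts and the medians by class are a description. Which of the 2 sides is larger over all genes depended on the method and on single libraries. DESeq2 gave 8063 more positive and 7013 more negative. Without haploid mitosis replicate 2 the counts were 7469 and 7196, and without haploid mitosis replicate 3 they were 7532 and 7265.

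The named differences between forms were the largest among called genes with at least 1 CPM in all 12 libraries. BcaB03g13400 on B03 rose in the tetraploid, with 234, 242 and 249 CPM at mitosis against 14.5, 14.9 and 15.9 CPM at meiosis. In the haploid it stood at 14.4, 13.4 and 14.0 CPM at mitosis and 24.2, 24.1 and 21.0 CPM at meiosis. Thus the tetraploid mitosis libraries alone were high, and the difference in log2 stage change was 4.73 (SE 0.10, adjusted p = 5.71e-28, edgeR). BcaB01g01240 on B01 averaged 34.8 ± 2.88 CPM at mitosis and 1.33 ± 0.222 CPM at meiosis in the tetraploid. The haploid means were 3.40 ± 0.481 CPM at mitosis and 3.41 ± 0.600 CPM at meiosis (SD, n = 3 each), and no haploid change was called (adjusted p = 0.98, edgeR).

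On the falling side, BcaB04g20422 on B04 stood at 10.1, 9.37 and 6.74 CPM at mitosis in the tetraploid, against 1156, 1133 and 1096 CPM at meiosis. The haploid libraries held 255, 252 and 245 CPM at mitosis, against 1646, 1697 and 1700 CPM at meiosis. The log2 fold change was -7.01 in the tetraploid and -2.75 in the haploid. BcaC06g35566 on C06 had the same shape, with means of 4.54 ± 0.811 CPM at mitosis and 751 ± 5.59 CPM at meiosis in the tetraploid. In the haploid the means were 121 ± 6.57 CPM at mitosis and 1189 ± 23.0 CPM at meiosis (SD, n = 3 each). In both genes the tetraploid mitosis libraries alone fell to about 10 CPM or less.

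The subgenomes contributed to every class nearly in proportion to their tested genes. B genes made up 42.2% of placed tested genes, 42.6% of placed switched-on genes (742 of 1742), 45.8% of placed switched-off genes (330 of 720), 42.9% of genes graded higher and 42.3% of genes graded lower. Called higher were 37.6% of tested B genes and 36.8% of tested C genes, and called lower 35.1% of B genes and 34.8% of C genes. The median log2 fold change was 0.03 in B genes and in C genes. Levels were alike too, with switched-on B genes at a median of 6.98 FPKM at mitosis and switched-on C genes at 7.62 FPKM.

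B genes held 45.3% ± 0.0234 of placed counts at mitosis and 45.5% ± 0.00328 at meiosis (SD, n = 3 each). The difference of -0.227 percentage points was larger than the spread between libraries (exact two-sided permutation p = 0.1, the smallest that 3 against 3 allows). In FPKM it was -1.80 points (42.7% at mitosis and 44.5% at meiosis), and with C03 genes left out it was -0.0539 points.

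All chromosomes held genes of every class. The share of tested genes switched on ran from 2.53% on C08 to 4.90% on B04, with a median of 3.66% over the 17 chromosomes. The share switched off ran from 0.974% on C08 to 2.21% on B06. C08 was thus lowest on both counts. Genes graded higher made up 17.2% (C03) to 24.1% (C05), and genes graded lower 21.7% (C03) to 27.4% (B02). Median log2 fold changes lay between -0.03 (C08) and 0.08 (C05), and stayed there with genes at 0 counts in a stage set at their bound (a floor of 3 counts per library).

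C03 was lowest in both graded classes and highest in genes not called, at 32.4%. Its tested genes also had the fewest counts behind them, with a median of 3.42 CPM over the 6 tetraploid libraries against 5.72 to 7.15 CPM on the other chromosomes, and the smallest share of its genes had enough counts to be tested (45.3%). The part of this lower depth in its fewer graded calls was not tested. On C03, 4.07% of tested genes were switched on, within the range of the other chromosomes. The 104 switched-on C03 genes had a median at mitosis of 4.79 CPM in tetraploid and 2.68 CPM in haploid libraries. C03 held 2.88% of counts at mitosis and 2.56% at meiosis in the tetraploid, against 5.63% at mitosis and 4.38% at meiosis in the haploid, so differences between forms on C03 go with this gap in level, whose part in them was not tested.

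By counts rather than genes, every chromosome differed between the stages. The share of counts was higher in every mitosis library than in every meiosis library on 8 chromosomes and lower on 9 (p = 0.1 for each by an exact two-sided permutation test with n = 3, the lowest that can be reached, and 0.1 after adjustment over 18 tests). C06 rose most in ratio, with 7.64% ± 0.0222 of counts at mitosis and 6.20% ± 0.0134 at meiosis, followed by B05 with 4.13% ± 0.0380 and 3.41% ± 0.00496. C08 had the lowest ratio, with 4.22% ± 0.0139 at mitosis and 5.07% ± 0.00865 at meiosis (SD, n = 3 each). Many of these shifts lay in a few abundant genes. With the 100 genes of highest mean CPM left out, an alternative chosen after seeing the data, the difference turned on 5 chromosomes (B04, B05, B06, C01 and C09). B05 then had 3.52% at mitosis and 3.61% at meiosis. C06 still had a higher share at mitosis, by 0.829 points, and C08 a lower one, with 4.83% at mitosis and 5.32% at meiosis.

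**Figure D4:**
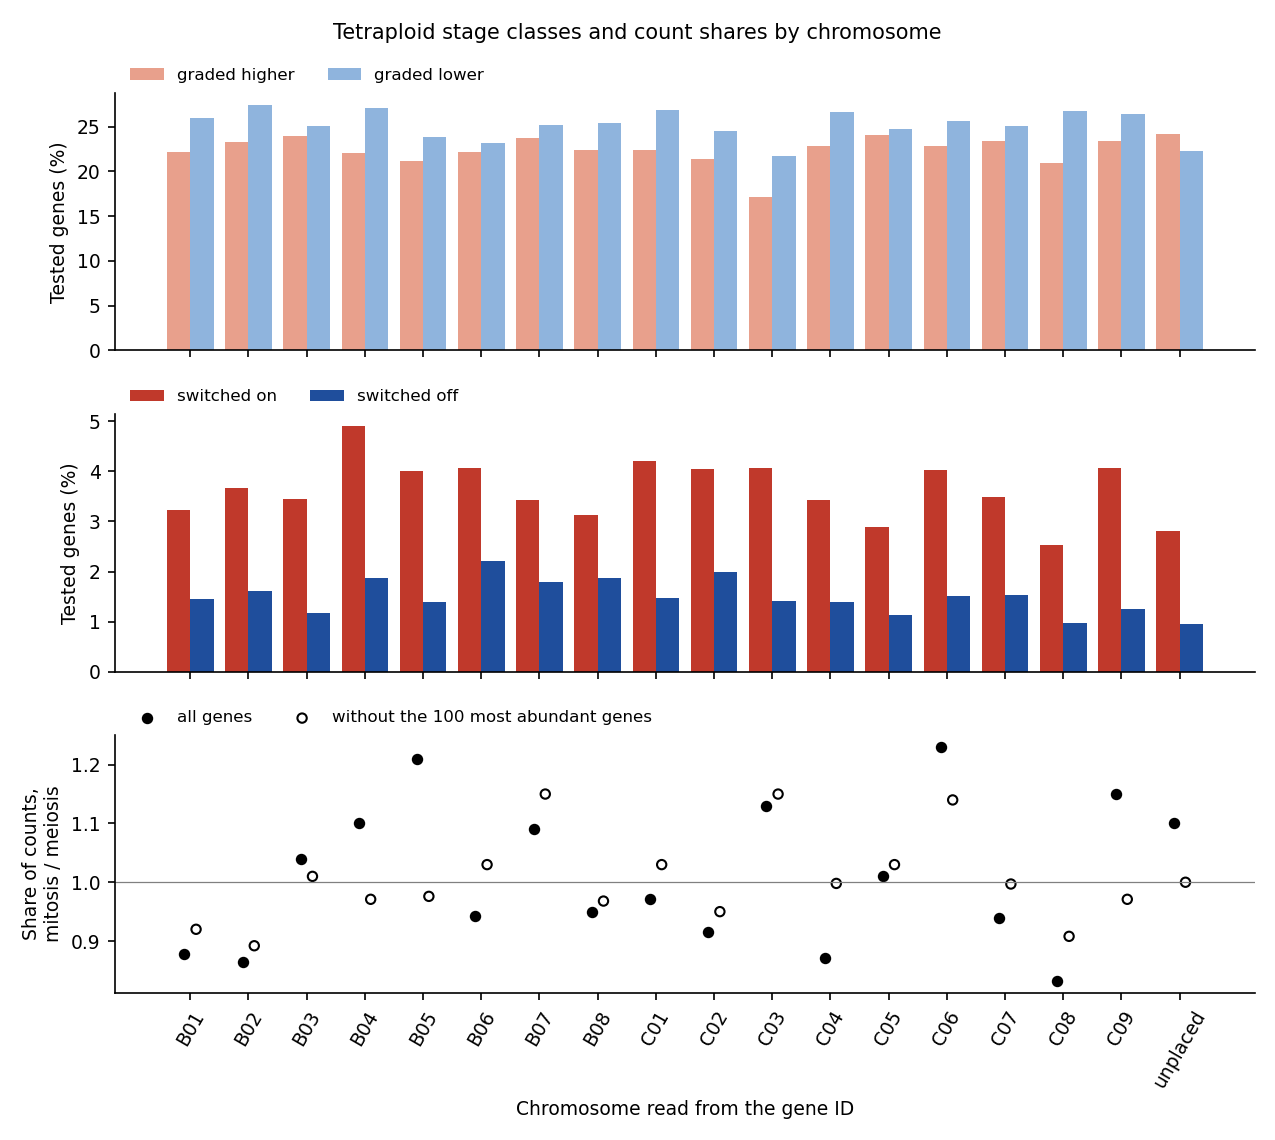
Percent of tested genes graded higher and graded lower (top) and switched on and off (middle) by chromosome in the tetraploid, and the ratio of the mean share of counts at mitosis to that at meiosis (bottom, 3 libraries per stage, filled for all genes and open without the 100 most abundant genes). The bars differ little between chromosomes, with C03 lowest in both graded classes, while the ratio runs from 0.832 on C08 to 1.23 on C06 with all genes.

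Counts were also more concentrated at mitosis, and yet more genes were expressed. Together, the 1000 genes with most counts in a library held 37.4% ± 0.138 of counts at mitosis and 32.2% ± 0.0504 at meiosis (SD, n = 3 each). At least 5 CPM, on total counts without TMM, was reached by 27203 ± 62.8 genes at mitosis and 26888 ± 47.4 at meiosis, and at least 0.5 CPM by 48086 ± 465 at mitosis and 46051 ± 297 at meiosis. Each of these differences separated all mitosis from all meiosis libraries (exact two-sided permutation p = 0.1, n = 3, the smallest possible).

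The direction of change went with gene length. Length was taken as implied by counts and FPKM together, for 49391 tested genes with at least 100 counts over all libraries. It came out under 150 bases for 862 genes, where it may not be a true length. Genes graded higher had a median implied length of 1544 bases (interquartile range 989 to 2332), against 1057 bases (650 to 1599) for genes graded lower and 1163 bases for all. Switched-on genes, at a median of 920 bases, and switched-off genes, at 950 bases, were short. Their class limits are not levels per length, and the part of these limits in their short lengths was not tested.

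Genes were put in 5 bins of equal number by length. In the longest, over 1983 bases, 51.3% were called higher at mitosis and 24.2% lower, with a median log2 fold change of 0.40. In the shortest, under 586 bases, 26.9% were called higher and 39.8% lower, with a median of -0.23. Both switched classes made up less of the longest than of the shortest genes. Switched-on genes were 2.33% of the longest and 5.32% of the shortest, and switched-off genes 0.506% and 1.88%. The limits of both classes are in counts and CPM, which are not levels per length and were higher in longer genes. The part of these limits in the switched shares was not tested, and the shares were not compared at like CPM. FPKM differences on the log2(FPKM + 0.1) scale gave the same order, with medians of 0.21 in the longest and -0.42 in the shortest genes. The haploid had 0.21 in the longest and -0.08 in the shortest by counts. Longer genes drew more counts, with a median of 9.02 CPM in the longest and 4.02 CPM in the shortest. Within each of 5 bins of mean CPM the longest genes still had the higher median, by 0.28 against -0.49 among the most abundant genes and by 0.35 against -0.10 among the least abundant.

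**Figure D5:**
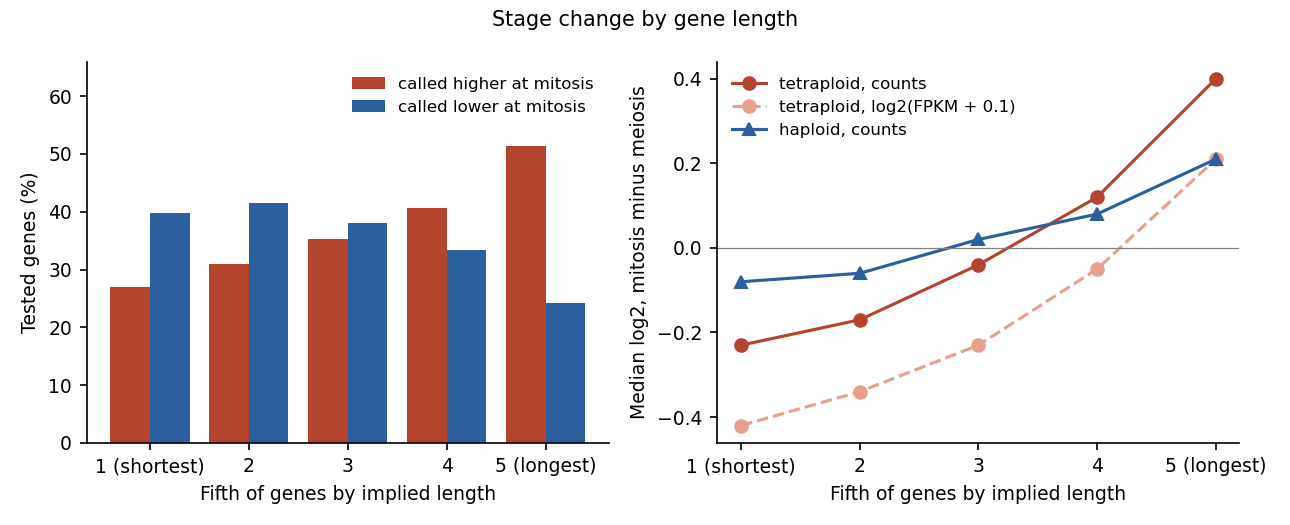
Percent of genes called higher and lower at mitosis in the tetraploid (left) and median log2 difference of mitosis minus meiosis (right) in 5 bins of implied length with equal numbers of genes. The share called higher goes up with length, from 26.9% to 51.3%, and the share called lower is 24.2% in the longest genes. The median goes up with length in tetraploid counts, tetraploid FPKM and haploid counts.

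Neighbouring genes shared a class more often than genes at large, which is given as counts with no test. The next gene in ID order was also switched on for 120 of 1742 placed switched-on genes (6.89%), while 1.94% of all next genes were. For switched-off genes the share was 5.69%, against 0.802%. Among pairs with both genes tested the shares were 12.2% against 3.29% and 9.60% against 1.52%. Graded genes showed less of this, with 16.0% against 11.9% for genes graded higher and 19.1% against 13.5% for genes graded lower. Among pairs with both genes tested these were 25.5% against 23.1% and 29.8% against 26.8%. Most switched-on genes stood alone, 1525 of 1742, and the longest unbroken run held 5. That run, on B04, stood between 15.6 and 248 CPM at mitosis and at 0 counts at meiosis. In the haploid all 5 genes were switched on too, to between 2.09 and 14.5 CPM. Counts and FPKM imply lengths of 18 to 298 bases for them, which are not plausible gene lengths throughout, and the cause was not tested. How the authors' counting treated reads shared by near-identical neighbours is not known, and these values are uncertain. A run of 4 on B01, with implied lengths as low as 35 bases, and another on C06 followed. The longest runs of switched-off genes held 4, on B04 and on C01, where implied lengths were likewise as low as 260 and 72 bases.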

How the data were processed

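RNA-seq read counts were analysed for 12 libraries, 3 for each form and stage. The authors deposited whole-number counts per gene, not normalised, as the values show, and a table of FPKM for the same genes and libraries. The submitters' processing notes list featureCounts 2.0.1, HISAT2 2.1.0, TopHat2 and Bowtie2 2.2.3 without saying what each did. For the genome build, annotation, strand setting and treatment of reads shared by near-identical copies, the sources used here give nothing, so values of homoeologues and tandem copies are uncertain.

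The count test was edgeR 4.0.16 in R 4.3.3 (TMM, default filter, 1 mean per group over all 12 libraries, quasi-likelihood test, two-sided, Benjamini-Hochberg over 51860 genes, which hold 99.78% of counts). Each SE was computed as the log2 fold change over the square root of its F statistic. At large fold changes that value can fall below the spread between libraries. The common biological coefficient of variation was 0.0839. Alternatives used DESeq2 1.42.0, limma 3.58.1 on log2(FPKM + 1) and log2(FPKM + 0.1), other class limits and each library left out. Exact permutation tests used SciPy 1.17.1. Intervals and floors take in counting error alone, because PCR copies are not told from molecules here.

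Members, class limits and tests were chosen with earlier results of these data known. Named IDs are, per class, the switched gene with the highest mean CPM and the graded gene with the largest fold change, and the 2 largest differences between forms in each direction among called genes with at least 1 CPM in all libraries. The summaries by length, neighbour and run, and the chromosome shares without abundant genes, took their final form after the data were seen. Planned marker lists need gene names and were not run.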

Additional observations from a re-analysis of the deposited data

Results flagged for a closer look

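The stage changes of 4 genes are given for a closer look because the test of the difference between the tetraploid and the haploid called them (edgeR's quasi-likelihood test, interaction, adjusted over all tested genes). The difference in log2 stage change, tetraploid minus haploid, was 4.73 for BcaB03g13400 (adjusted p = 5.71e-28, edgeR) and 4.71 for BcaB01g01240 (adjusted p = 2.07e-16, edgeR). It was -4.27 for BcaB04g20422 (adjusted p = 1.76e-29, edgeR) and -4.06 for BcaC06g35566 (adjusted p = 6.09e-28, edgeR). In each of the 4 genes the tetraploid mitosis libraries lay apart from the other 9 libraries. With any 1 of the 12 libraries left out, BcaC06g35566 had differences of -4.21 to -3.96 and BcaB04g20422 of -4.39 to -4.11. Those of BcaB03g13400 were 4.70 to 4.79 and those of BcaB01g01240 were 4.57 to 4.84.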

How the results depend on the processing

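Under the alternatives run, no named gene lost its call or turned its direction. Median-of-ratios size factors, DESeq2, no filter on low counts, C03 genes left out, FPKM with limma-trend and a fit of the tetraploid libraries alone kept every class count within 1.5 times. FPKM moved the balance most, to 9417 genes graded higher and 15732 graded lower (pseudocount 1), and its median log2 stage change was -0.11. With 1 library left out, switched-on genes numbered 1865 to 2188, switched-off genes 755 to 951, genes graded higher 11182 to 11674 and genes graded lower 12578 to 13202. The class limits stayed the same when a tetraploid library was left out, so fewer libraries had to meet them. That left the switched classes little room to lose genes, and their ranges cannot show how stable they are. All 1865 switched-on genes were found again in each of these fits. No label says what a replicate number marks, and deviations of same-numbered tetraploid libraries correlated at -0.00991 to 0.00591. The replicate block gave 18850 genes higher and 17509 lower, 1865 switched on and 762 switched off, and 7032 and 7360 differences between forms.

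Class sizes depend on their limits. With 0 counts required at the silent stage, 1058 genes were switched on and 363 off, and with up to 10 counts allowed 2765 were switched on and 1262 off. At 5 CPM in place of 1 CPM there were 983 switched on, 313 off, 6907 graded higher and 8628 graded lower. A 2-fold minimum left 12606 genes higher and 9880 lower, and 3878 more positive and 3033 more negative in the tetraploid than in the haploid. Without that minimum, too, the more positive side became the larger one with median-of-ratios size factors (8262 and 7450), no filter (7965 and 7960) and FPKM (10736 and 7839 at pseudocount 1).

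Chromosome shares of counts, mitosis minus meiosis, turned without the 100 most abundant genes on B04 (-0.140 points), B05 (-0.0877), B06 (0.111), C01 (0.205) and C09 (-0.140). In FPKM they turned on B07 (-0.0284), C05 (-0.247) and for unplaced genes (-0.522). The cause was not tested. Genes near 3 counts are at the limit of this depth, where silent means not detected.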

Other observations

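By place along the chromosome, class shares varied little. In 5 equal bins of gene order, 3.34% to 3.95% of tested genes were switched on and 1.43% to 1.71% switched off, and genes graded higher made up 22.0% to 22.9%.

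Called genes with traces at the other stage lay between switched and graded genes at that stage, as the class limits set. The 4104 of them that were higher at mitosis had medians of 3.48 CPM at mitosis and 0.496 CPM at meiosis in the tetraploid, and they held 10.4% to 10.6% of counts at mitosis and 0.250% to 0.254% at meiosis. In the haploid 3038 of them (74.0%) were called higher, where 33.3% of all tested genes were, and 72.6% of genes graded higher.

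Unplaced genes, 4386 of those tested, had the highest median log2 fold change of any group of genes by chromosome label, 0.10, with 39.0% called higher and 32.1% lower. They held fewer switched genes, 2.80% on and 0.958% off. They took 7.97% ± 0.0246 of counts at mitosis and 7.21% ± 0.0104 at meiosis (SD, n = 3 each), and 7.66% at both stages without the 100 most abundant genes.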
